A study of Mus musculus with 15 samples.

Results

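The 10 genes described here encode salt, magnesium, potassium and calcium transport in the distal convoluted tubule of the mouse kidney and the WNK kinases that regulate it: Slc12a3, Pvalb, Trpm6, Kcnj10, Kcnj16, Wnk1, Wnk4, Stk39, Calb1 and Trpv5. They were taken by symbol, whatever their values, and all 10 were found among the 23393 genes of each of 3 comparisons. The kidneys came from C57BL/6 mice homozygous for a floxed Esrrg allele, which encodes the nuclear receptor ERRγ. Mice that also carried Sim1-Cre were labelled knockout, and Cre-negative littermates with the same ERRg fl/fl genotype were labelled wild type and served as controls. Polyadenylated RNA of whole kidneys was sequenced from 2 control and 3 knockout males at 3 weeks of age, 2 control and 2 knockout females at 3 weeks, and 3 control and 3 knockout males at 3 months. By its title, the study links ERRγ with genes of mitochondria and of reabsorption, and the question put to each pair of groups is which kidney genes depend on the genotype.

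Several features of the groups limit what the values mean. The labels do not say which kidney cells Sim1-Cre reaches, and the transgene is also known for its activity in neurons of the hypothalamus, so an effect on the kidney from outside it cannot be told apart from one within it. In whole kidney, fewer cells of a type and less RNA per cell cannot be told apart. The source names of the 3-month knockouts say female, whereas their titles and sex entries say male. The data were the authors' own comparisons, with no value per library, so the spread is given by the standard error (SE) of each log2 fold change. The lowest mean counts in each table moved in steps that fitted 4, 4 and 5 libraries for 3-week males, 3-week females and 3-month males, where the labels give 5, 4 and 6. By the sign of the fold changes at these steps, and as the ratio is read here, 2 knockout libraries entered each table. They stood beside 2, 2 and 3 control libraries, so 1 labelled knockout would be missing from each male table. Which labelled libraries entered is not known. The mean normalized counts of all genes summed to 47478811, 33861809 and 18805533. Umod and Slc34a1, markers of the thick ascending limb and proximal tubule of the kidney, had means of 117779 and 153228 normalized counts in the authors' deposited table for 3-week males. The tables do not name the direction of their ratio. It is read here as knockout over control because of the series title, so the fall of reabsorptive genes is part of that reading and no independent evidence for it.

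Esrrg, the targeted gene, was higher and not lower in the libraries labelled knockout at 3 weeks under this reading. Its log2 fold change in the authors' deposited table was 0.82 ± 0.20 (SE) in males (adjusted p = 0.000613) and 1.04 ± 0.17 in females (adjusted p = 1.70e-08). At 3 months the authors' deposited table gave -0.87 ± 0.57 with no p-value. The position of the floxed part of Esrrg is not given, so a count over the whole gene, which can include transcripts that lack that part, does not check the labels. Every direction below rests on the same reading of the ratio, and all would turn, at the same fold, if it runs the other way.

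The distal convoluted tubule reabsorbs sodium chloride from the urine through the thiazide-sensitive cotransporter encoded by Slc12a3. The kinases WNK1 and WNK4 switch on the kinase SPAK, encoded by Stk39, which phosphorylates and activates this cotransporter. Potassium channels of the basolateral membrane, built from the subunits encoded by Kcnj10 and Kcnj16, set the membrane potential and, through intracellular chloride, the activity of the WNK kinases. The same segment takes up magnesium through the TRPM6 channel, and its late part and the connecting tubule take up calcium through TRPV5 with the help of calbindin.

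Most of the 10 genes had negative fold changes in knockout kidneys: 8 of 10 in 3-week males, 9 in 3-week females and 8 in 3-month males in the authors' deposited tables, beside 50.1%, 48.7% and 49.8% of all genes. In the authors' deposited table for 3-week males, 6 of 10 tested members fell (adjusted p under 0.05), namely Slc12a3, Pvalb, Trpm6, Kcnj10, Wnk1 and Wnk4, against 8.52% of all 14657 tested genes that fell, and 0 rose, against 8.81%. In that for 3-week females, 6 of 9 tested members fell, namely Pvalb, Trpm6, Kcnj10, Wnk1, Wnk4 and Calb1, against 10.4% of 14146 genes, and 0 rose, against 8.29%. In the authors' deposited table for 3-month males only 3 members were tested, of which Pvalb and Trpm6 fell, against 27.8% of 12828 genes, and Stk39 rose, against 29.8%. The median log2 fold change over all 10 members, tested or not, was -0.82, -0.89 and -1.28 in the 3 deposited tables of the authors, beside -0.00061, 0.01 and 0.01 over all genes. The fifth percentile of all genes lay at -0.73, -0.71 and -1.69, so the median member was below it in both 3-week comparisons and not at 3 months.

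The other 7 members at 3 months, and Slc12a3 in females, carried the status Outlier, which goes with a fold change and no p-value. This status was commoner among these genes than over all genes in the authors' deposited table for 3-month males: it marked 7 of the 10 members and 11.3% of the 9811 genes with a mean count at or above that of the least abundant member. It was not particular to the members. Of the markers listed below it also marked 9 of 12 for the thick ascending limb, 9 of 12 for the proximal tubule and 10 of 12 for intercalated cells. It marked 2 of 8 podocyte markers and 1 of 11 macrophage and lymphocyte markers. The sources used here do not say what set the status. For such genes, and for all others with a fold change, those of status Low included, a p-value was computed from the fold change over its SE. The authors' own p-values were found to be of this kind. Adjustment was over all genes with a fold change. By this rule 6 members fell and 1 rose at 3 months, against 22.5% and 26.2% of 18244 genes, and 7 members fell and 0 rose in 3-week females, against 8.02% and 6.24% of 18425 genes. Whether a single library sets the value of such a gene was not tested, since no value per library was used.

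**Figure D1:**
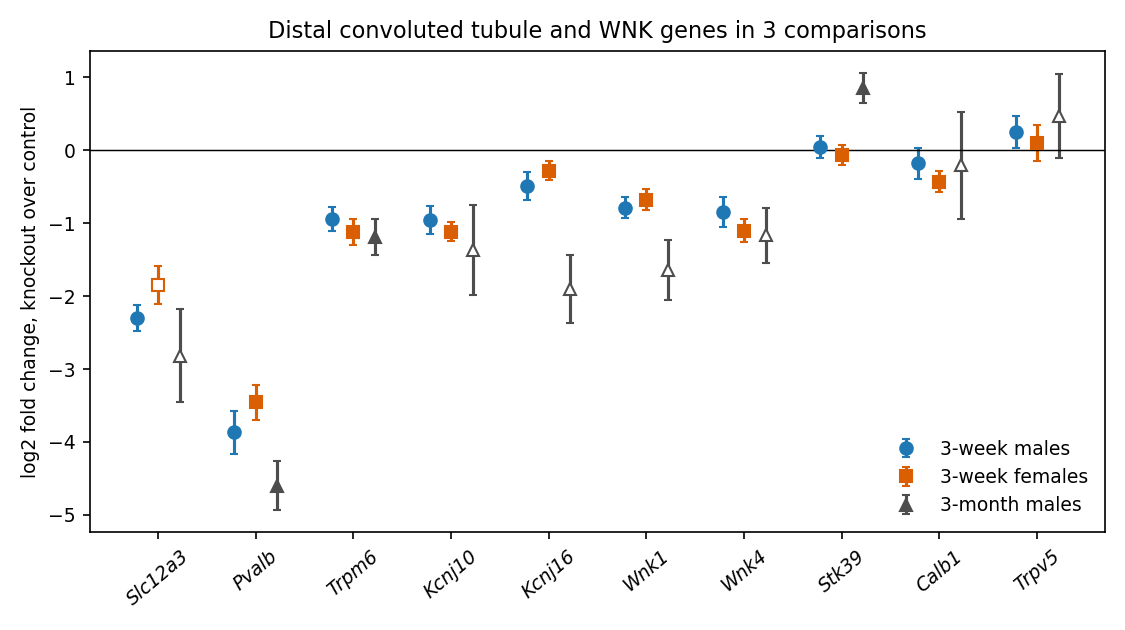
Log2 fold change of knockout over control (vertical axis) for each of the 10 genes in 3-week males (circles), 3-week females (squares) and 3-month males (triangles), as deposited; bars are 1 SE, and open symbols mark genes without a deposited p-value. Pvalb lies lowest in every comparison (-3.46 to -4.60), Trpv5 lies above 0 throughout, and Stk39 leaves the line at 0 only at 3 months (0.85).

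The promoters of the members were searched for the extended half-site that oestrogen-related receptors are known to bind. RefSeq start sites on GRCm38.p6 were found for 9 of the 10 members, all but Calb1, 13 starts in all. The letters AAGGTCA were looked for on both strands in the 250 bases before each start, and the longer TNAAGGTCA, which contains them, likewise. Of 32851 mouse starts, 4.08% held the first and 1.14% the second. Among the 13 member starts 1 held both, the first of 4 listed for Kcnj16, in reverse orientation with its first base at position -190 from the start. Kcnj16 did not pass the test in either 3-week comparison. No start of Pvalb, Trpm6, Kcnj10, Wnk1 or Wnk4, which passed the test in both, nor that of Slc12a3, held a match. A match is a description of these letters in this window, and no match says nothing of the factor. The stretches below show the Kcnj16 match and, for comparison, the start regions of the genes with the largest falls; each ends 10 bases before the start, and capitals mark the match as read on the gene's strand.

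Kcnj16, chr11:110967783-110968022, plus strand: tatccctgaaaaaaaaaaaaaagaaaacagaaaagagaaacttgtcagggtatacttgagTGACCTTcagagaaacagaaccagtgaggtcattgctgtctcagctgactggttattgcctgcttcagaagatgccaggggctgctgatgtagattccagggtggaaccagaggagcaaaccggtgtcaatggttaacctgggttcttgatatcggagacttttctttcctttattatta
Slc12a3, chr8:94328958-94329197, plus strand: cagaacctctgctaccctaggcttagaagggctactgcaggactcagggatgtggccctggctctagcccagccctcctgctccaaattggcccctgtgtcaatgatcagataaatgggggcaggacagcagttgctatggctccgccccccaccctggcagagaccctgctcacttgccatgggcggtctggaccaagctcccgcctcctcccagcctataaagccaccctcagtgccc
Pvalb, chr15:78206411-78206650, minus strand: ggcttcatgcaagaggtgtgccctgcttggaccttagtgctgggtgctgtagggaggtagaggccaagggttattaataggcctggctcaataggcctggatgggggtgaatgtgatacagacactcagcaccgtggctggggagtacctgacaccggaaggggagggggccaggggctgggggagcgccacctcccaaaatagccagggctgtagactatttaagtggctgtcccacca

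The Kcnj16 stretch is also the poorest in G and C of the 3, at 42.5%, against 61.2% for Slc12a3 and 58.8% for Pvalb. Pvalb and Kcnj16 have further RefSeq starts, and the first listed of each is shown.

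Slc12a3, which encodes the sodium chloride cotransporter of the segment, lies on chr8:94329201-94366214 of GRCm38. In the authors' deposited table for 3-week males its log2 fold change was -2.30 ± 0.18 (adjusted p = 9.14e-34), which is a 4.92-fold difference, lower in knockouts as the ratio is read, at a mean of 24448 normalized counts over both genotypes. In 3-week females the authors' deposited table gave -1.85 ± 0.26 at a mean of 16844, with no p-value, and the p from this ratio was 6.93e-11 after adjustment. In 3-month males the authors' deposited table gave -2.81 ± 0.63 at a mean of 15791, again without a p-value, and the ratio gave an adjusted p of 4.02e-05. By the deposited values Slc12a3 was therefore between 3.60-fold and 7.04-fold lower in knockouts in all 3 comparisons, and the p-values of the last 2 rest on the rule for outlier genes.

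Pvalb encodes parvalbumin, a calcium-binding protein that in the kidney marks the early part of the segment, and lies on chr15:78191114-78206400. It showed the largest fall of the 10 genes and was tested in every comparison. The log2 fold change in the authors' deposited table for 3-week males was -3.87 ± 0.30 (adjusted p = 4.62e-36), at a mean of 624 normalized counts. For 3-week females the authors' deposited table gave -3.46 ± 0.24 (adjusted p = 3.34e-44), at a mean of 336. At 3 months it was -4.60 ± 0.34 in the authors' deposited table (adjusted p = 4.61e-40), at a mean of 209. By the deposited values the levels of the genotypes thus differed 14.6-fold, 11.0-fold and 24.2-fold, lower in knockouts as the ratio is read here and higher by the same folds if it runs the other way. The deposited fold changes appear to be drawn towards 0, as described below. With this undone by an approximate formula, the fall was largest in 3-week males (-7.10) and not at 3 months (-5.08), so the order of these folds is not settled.

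Trpm6, on chr19:18749983-18892511, encodes the apical channel through which the segment takes up magnesium. Its fall was smaller than that of Slc12a3 and close to the same size in each comparison. The authors' deposited table gave -0.94 ± 0.16 in 3-week males (adjusted p = 2.14e-07), -1.12 ± 0.18 in 3-week females (adjusted p = 3.25e-08) and -1.19 ± 0.24 in 3-month males (adjusted p = 4.11e-06). Levels thus differed 1.92-fold to 2.29-fold between the genotypes, with the direction again that of the ratio as read. Trpm6 overlaps Gm24190, a small RNA gene on the other strand.

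Of the 2 subunits of the basolateral potassium channel, Kcnj10 passed the test at 3 weeks and Kcnj16 did not. Kcnj10, on chr1:172341210-172374085, encodes the subunit that can form a channel by itself and that is mutated in a salt-losing tubulopathy. It fell in the authors' deposited table for 3-week males (log2 fold change -0.95 ± 0.19, adjusted p = 1.92e-05) and in that for females (-1.12 ± 0.13, adjusted p = 1.59e-16). Kcnj16, on chr11:110968033-111027968, encodes its partner subunit, and its log2 fold changes in the same authors' deposited tables were -0.49 ± 0.19 in males (adjusted p = 0.0549) and -0.28 ± 0.13 in females (adjusted p = 0.117), neither of which passed the test. Whether the subunits differed from each other was not tested.

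At 3 months neither potassium channel gene had a deposited p-value. The authors' deposited table gave -1.37 ± 0.62 for Kcnj10, with a 95% interval of -2.58 to -0.16, and -1.90 ± 0.47 for Kcnj16, with an interval of -2.82 to -0.99. By the rule for outlier genes Kcnj16 was lower (adjusted p = 0.000181) and Kcnj10 did not pass (adjusted p = 0.0532). The wide interval of Kcnj10 includes both its 3-week values.

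Wnk1 and Wnk4 encode the kinases at the head of the cascade, and both fell in both 3-week comparisons. For Wnk1, on chr6:119923969-120038672, the authors' deposited table gave -0.79 ± 0.14 in males (adjusted p = 1.62e-06) and -0.68 ± 0.14 in females (adjusted p = 4.66e-05). For Wnk4, on chr11:101260567-101277409, the authors' deposited table gave -0.85 ± 0.20 in males (adjusted p = 0.000536) and -1.11 ± 0.16 in females (adjusted p = 1.03e-10). In 3-month males the authors' deposited table listed -1.65 ± 0.41 for Wnk1 and -1.17 ± 0.38 for Wnk4, both without a p-value, and the ratios gave adjusted p-values of 0.000248 and 0.00539. Wnk1 is counted here as 1 gene, which adds the long isoform, present in many cells, to the kidney-specific isoform that lacks most of the kinase domain and marks the distal convoluted tubule. The sum does not tell which of them was lower. Wnk4 overlaps the antisense gene Gm11615, and the libraries were made with a stranded kit, but the sources used here do not say whether the counting used strand.

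Stk39, on chr2:68210445-68472268, did not follow the kinases above it. In the authors' deposited table its log2 fold change was 0.04 ± 0.15 in 3-week males (adjusted p = 0.918; 95% interval -0.25 to 0.33) and -0.06 ± 0.14 in 3-week females (adjusted p = 0.808; -0.33 to 0.20). These intervals leave room for changes of up to about those bounds in either direction. In 3-month males Stk39 rose in the authors' deposited table by 0.85 ± 0.21 (adjusted p = 0.000171), a level 1.80-fold that of controls. These are RNA levels, and the phosphorylation through which SPAK is switched on was not measured.

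Of the calcium transport genes of the late segment and the connecting tubule, Calb1 passed the test in females and Trpv5 in no comparison. Calb1, on chr4:15881264-15908064, encodes the calbindin that buffers calcium on its way through the cell. In the authors' deposited table it was -0.18 ± 0.21 in 3-week males (adjusted p = 0.656) and -0.43 ± 0.15 in 3-week females (adjusted p = 0.0247), and -0.21 ± 0.73 with no p-value in 3-month males. The call in females was lost when fold changes were scaled to equal total counts (adjusted p = 0.157) or centred on genes of like mean count (adjusted p = 0.223). Trpv5, on chr6:41652173-41680769, encodes the apical calcium channel, and the authors' deposited table gave 0.25 ± 0.22 in 3-week males (adjusted p = 0.533), 0.10 ± 0.25 in 3-week females (adjusted p = 0.837) and 0.47 ± 0.58 with no p-value in 3-month males. The 95% intervals of Trpv5 ran from -0.19 to 0.69, from -0.39 to 0.58 and from -0.66 to 1.60.

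The scale moves the 3-month values of the abundant members. Putting equal total counts in place of the authors' scaling added 0.18, 0.15 and 0.49 to every log2 fold change of the 3 deposited tables, and centring on genes of like mean count moved abundant genes the same way at 3 months. Under the latter the 3-month log2 fold change became -1.20 for Kcnj16, -0.94 for Wnk1, -0.75 for Wnk4 and -2.11 for Slc12a3, and that of Calb1 became 0.49. The fold changes in these tables also have a ceiling on their SE, as arises where they are drawn towards 0 for uncertain genes, so they may understate large changes. The ceiling was 0.44 in 3-week males, 0.42 in 3-week females and 1.10 in 3-month males. The drawing-in may therefore differ between the tables, and sizes of fold changes may not be comparable across them. With this drawing-in undone by an approximate formula, chosen after seeing the data, Slc12a3 stood at -2.77, -2.95 and -4.21 and Pvalb at -7.10, -5.09 and -5.08.

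The mean level of each gene, over both genotypes and per kb of its longest coding transcript, set the 10 genes in nearly the same order in each table. In 3-week males the authors' deposited table gave Kcnj16 a mean of 8745 normalized counts per kb, followed by Slc12a3 at 5672, Calb1 at 4858, Wnk1 at 2347 and Wnk4 at 1943. Stk39 at 777, Kcnj10 at 748, Pvalb at 639, Trpv5 at 473 and Trpm6 at 198 counts per kb came after them in the same authors' deposited table. The levels spanned 44.2-fold there, 48.2-fold in females and 34.7-fold at 3 months. The only neighbours that changed places were Stk39 and Kcnj10, at 215 and 232 normalized counts per kb in the authors' deposited table for 3-month males. The mean of Kcnj16 was 11.7, 12.3 and 16.4 times that of Kcnj10 per kb, and that of Wnk1 was 1.21, 1.36 and 1.30 times that of Wnk4. No spread over libraries goes with these means, so which neighbours differ beyond it is not known. Since the means include the knockout libraries, genes that fell have a higher level in controls than shown, and with all exons of a gene as its length Calb1 came before Slc12a3, Wnk4 before Wnk1, and Kcnj10 and Pvalb before Stk39 in 3-week males.

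**Figure D2:**
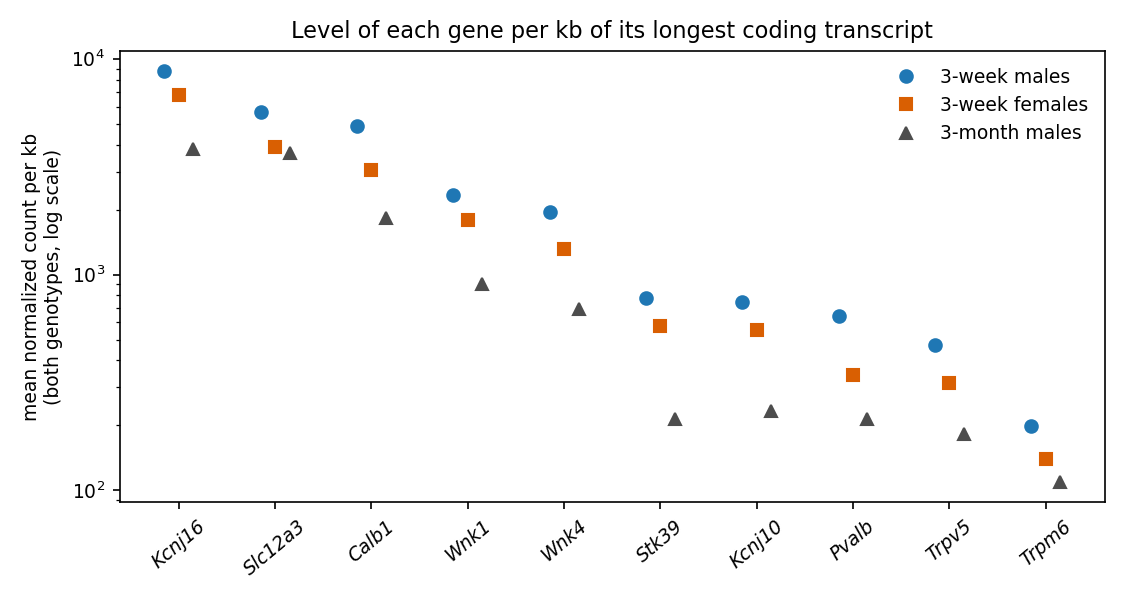
Mean normalized count per kb of the longest coding transcript (vertical axis, log scale) of each gene over the libraries of both genotypes in the 3 deposited tables (circles 3-week males, squares 3-week females, triangles 3-month males). The points have no error bars because no value per library was used. Levels ran from 8745 for Kcnj16 to 198 for Trpm6 in 3-week males. The order of some genes depends on the length used, and the means include the knockout libraries.

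The genotype effect was compared between the sexes at 3 weeks, and no difference between them passed the test for any member. The test took the difference of the 2 deposited log2 fold changes over its SE, adjusted over 13737 genes. Of all these genes 0 (0%) differed at an adjusted p under 0.05, and 237 did at an unadjusted p under 0.05. With p-values for all 18072 genes with a fold change in both, 2 differed at an adjusted p under 0.05, none of them a member. For Pvalb the fold changes in the authors' deposited tables differed by 0.41 ± 0.38 (female minus male; 95% interval -0.34 to 1.16; adjusted p = 0.9995). For Wnk4 the difference between the authors' deposited tables was -0.26 ± 0.26 (-0.77 to 0.24), and for Kcnj16 it was 0.21 ± 0.23 (-0.24 to 0.67). These intervals do not show that the sexes respond alike. With the drawing-in of fold changes undone, 132 genes differed, Pvalb among them (2.01 ± 0.50, adjusted p = 0.00776).

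The genotype effect in males was compared between 3 weeks and 3 months in the same way. Only 3 members had a p-value at both ages, Pvalb, Trpm6 and Stk39, and 1 of them, Stk39, differed. Of 12355 genes tested in both, 27.7% differed at an adjusted p under 0.05, so many genes did, and 1 of 3 members is near that share. The deposited log2 fold change of Stk39 in the authors' tables was higher by 0.81 ± 0.26 at 3 months (adjusted p = 0.00956; 95% interval 0.31 to 1.32), and this call was lost with standard errors multiplied by 1.5 (adjusted p = 0.207). The other members tested did not pass. Pvalb differed between the authors' deposited tables by -0.73 ± 0.45 (adjusted p = 0.228) and Trpm6 by -0.25 ± 0.29 (adjusted p = 0.564). With p-values for all 17829 genes with a fold change at both ages, 25.3% of them differed, and 2 of 10 members did. Besides Stk39 this was Kcnj16, by -1.41 ± 0.51 (adjusted p = 0.0255), whereas Wnk1 (-0.86 ± 0.44, adjusted p = 0.140) did not pass. With the drawing-in undone the difference of Pvalb turned to 2.02 ± 0.54 (adjusted p = 0.00172). Sex labels, library numbers and total counts differ between these tables too, and their part in the differences was not tested.

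**Figure D3:**
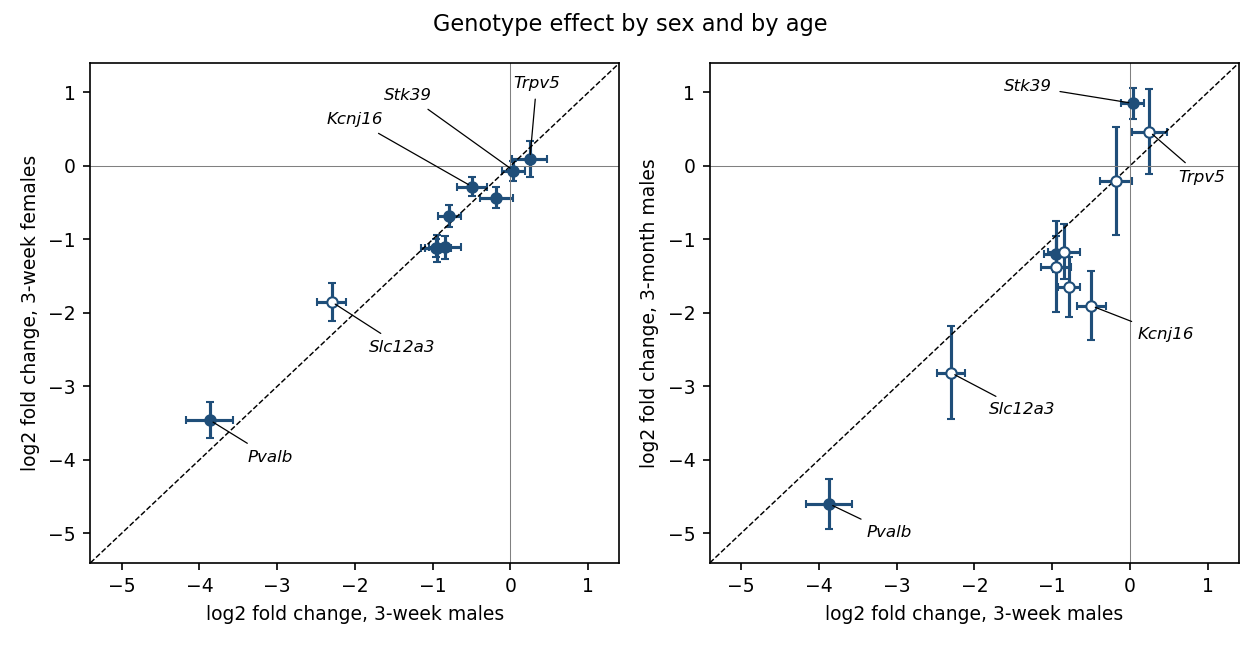
Log2 fold change of knockout over control in 3-week females (left, vertical axis) and 3-month males (right, vertical axis) against that in 3-week males (horizontal axes), 1 point per gene; bars are 1 SE, open points lack a deposited p-value on the vertical axis, and the dashed line marks equal values. Most points lie near the line on the left, whereas on the right Stk39 stands above it (0.85 against 0.04) and Kcnj16 below it (-1.90 against -0.49).

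Other genes of the distal convoluted tubule and of magnesium handling were lower more often than higher. Of the 15 genes listed besides the members, 6 of 13 tested fell and 1 rose in the authors' deposited table for 3-week males, 3 of 13 fell and 1 rose in that for females, and 5 of 8 fell and 0 rose at 3 months. Over all tested genes 8.52%, 10.4% and 27.8% fell in these comparisons, and 8.81%, 8.29% and 29.8% rose. The counts of every list below are to be read beside the same shares. Their median log2 fold change was -0.44, -0.20 and -0.86. Egf, whose product stimulates magnesium uptake through TRPM6, fell in 3-week males and females, with log2 fold changes of -2.87 and -2.70 in the authors' deposited tables. Egf is counted again among the thick ascending limb markers below, so its fall is not particular to this list. Ppp1r1a, an inhibitor of protein phosphatase, fell in 3-week males (-2.33 in the authors' deposited table), and Slc16a7, a monocarboxylate transporter, fell in 3-week males and females (-1.28 and -1.20). Slc8a1, a sodium calcium exchanger, went the other way: it rose by 0.62 and 0.65 in the authors' deposited tables for 3-week males and females. Ppp1r1a is counted again in the WNK pathway list below, and Slc8a1 in the list of calcium genes. At 3 months Trpm7, the relative of Trpm6, and Cnnm4, a magnesium transport protein, fell, with log2 fold changes of -1.41 and -0.56 in the authors' deposited table.

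The rest of the WNK pathway did not move as a block. Of the 21 listed genes besides the members, which are kinases, their scaffold and degradation partners, phosphatases and cation chloride cotransporters, 5 of 20 tested fell and 1 rose in the authors' deposited table for 3-week males. In that for females 4 of 20 fell and 2 rose, and at 3 months 4 of 17 fell and 4 rose. The counts at 3 months are near the shares over all tested genes there, 27.8% lower and 29.8% higher. The medians over these genes were 0.01, 0.03 and -0.24. Klhl3, the adaptor through which WNK kinases are marked for degradation, fell, with -1.01 in the authors' deposited table for 3-week males and -0.65 in that for females. Slc12a1, the cotransporter of the thick ascending limb, fell likewise (-0.90 and -1.03 in the authors' deposited tables), as did Slc12a7, a potassium chloride cotransporter (-0.61 and -0.37). Slc12a1 is counted again among the thick ascending limb markers. Slc12a2 and Slc12a4, cotransporters of many cell types, rose at 3 months by log2 fold changes of 1.77 and 1.10 in the authors' deposited table, and Cul3, the ubiquitin ligase scaffold that works with Klhl3, fell there (-0.77). Wnk3 rose in 3-week females alone by the call (1.05 in the authors' deposited table), but its difference from males did not pass (0.90 ± 0.46, adjusted p = 0.9995).

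All 9 genes of the basolateral list besides Kcnj10 and Kcnj16 had negative fold changes in every comparison. The list also holds Kcnj1, which encodes an apical potassium channel and is counted again among the thick ascending limb markers. In the authors' deposited table for 3-week males 3 of 8 tested fell, in that for females 7 of 8, and at 3 months the single one tested, Kcnj13, fell (-1.08). The other 8 lacked a p-value there. Over all tested genes 8.52%, 10.4% and 27.8% fell in these comparisons. Bsnd, which encodes barttin, fell in 3-week males (-1.30) and in 3-week females (-1.55) in the authors' deposited tables. With equal total counts 5 genes of the list fell in females in place of 8, members included, and the call of Kcnj13 at 3 months was lost. Several of these genes are also expressed in the thick ascending limb and elsewhere.

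The calcium genes besides Calb1 and Trpv5 went in both directions. Of 14 listed, 3 of 13 tested fell and 2 rose in the authors' deposited table for 3-week males, 1 of 9 fell and 1 rose in females, and 1 of 4 fell and 2 rose at 3 months. Over all tested genes 8.52%, 10.4% and 27.8% fell in these comparisons, and 8.81%, 8.29% and 29.8% rose. Trpv6, the relative of Trpv5, rose by a log2 fold change of 1.44 in 3-week males and 3.30 in 3-month males in the authors' deposited tables. Klk1, a protease made in the connecting tubule, fell in all 3 deposited tables of the authors (-4.48, -4.74 and -4.50). Kl, which encodes klotho, and Pth1r, the parathyroid hormone receptor, fell in 3-week males, with -1.53 and -0.75 in the authors' deposited table.

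The genes listed for aldosterone-sensitive sodium transport were mixed, and not all of them carry sodium. The list also holds Aqp3, a water channel gene, and Kcnmb4, a potassium channel subunit gene. Both Aqp3 and Scnn1g are counted again among the principal cell markers. Of 14 listed, 2 fell and 2 rose of 10 tested in the authors' deposited table for 3-week males, 2 fell and 0 rose of 8 in females, and 1 fell and 3 rose of 9 at 3 months. Over all tested genes 8.52%, 10.4% and 27.8% fell in these comparisons, and 8.81%, 8.29% and 29.8% rose. Scnn1g, a subunit of the epithelial sodium channel, rose by log2 fold changes of 0.90 and 0.76 in the authors' deposited tables for 3-week and 3-month males. The other calls that rose were those of Aqp3 in the same tables (0.98 and 0.77) and of Kcnmb4 at 3 months. Prss8, a protease that activates that channel, fell in all 3 deposited tables of the authors (-0.53, -0.39 and -1.19), and Sgk1, a kinase induced by aldosterone, fell in 3-week males and females (-0.64 and -0.70).

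Of 20 transcription factors of the distal nephron, 7 of 20 tested fell and 4 rose in the authors' deposited table for 3-week males, 7 of 18 fell and 2 rose in females, and 3 of 11 fell and 3 rose at 3 months. The counts at 3 months are near the shares over all tested genes there, 27.8% lower and 29.8% higher. Sall3 (-2.02, -1.36 and -2.62), Lhx1 (-1.30, -0.97 and -2.90) and Esrra, a relative of Esrrg (-0.88, -0.76 and -1.12), fell in all 3 deposited tables of the authors. Prox1 fell in 3-week males (-2.87) and Emx1 in both 3-week comparisons (-1.18 and -0.92) in the authors' deposited tables. Grhl2 rose by a log2 fold change of 0.43 in 3-week and 1.83 in 3-month males in the authors' deposited tables. Sim2 was called in opposite directions, with -0.92 in 3-week females and 0.97 in 3-month males in the authors' deposited tables.

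**Figure D4:**
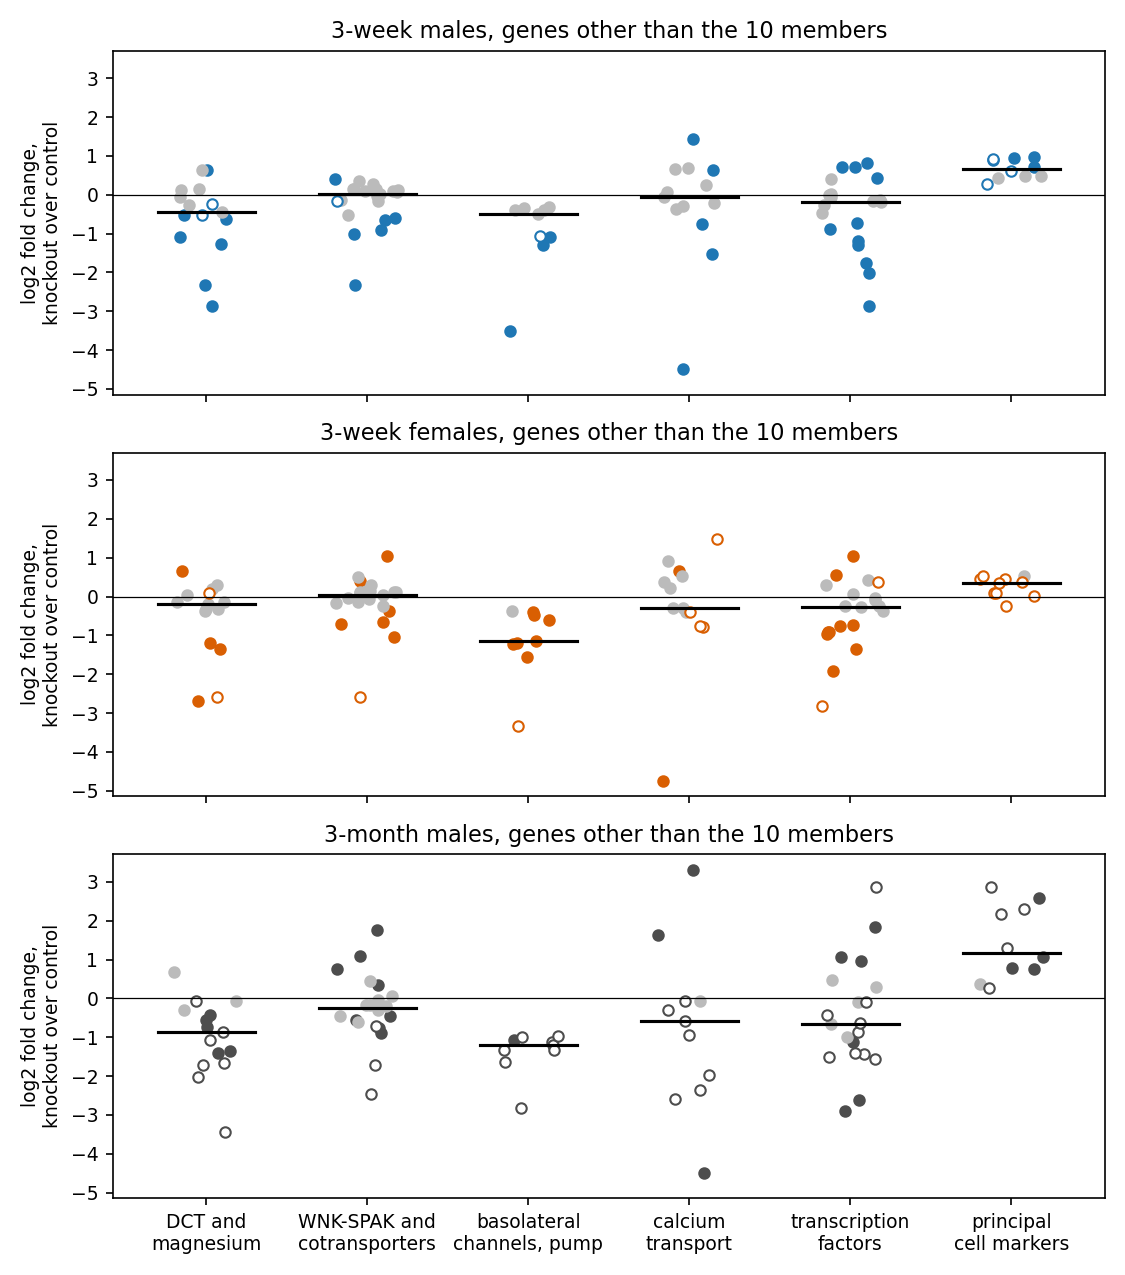
Log2 fold change of knockout over control (vertical axes) for the genes of 6 lists without the 10 members, in 3-week males, 3-week females and 3-month males from top to bottom; coloured points passed the test, grey points did not, open points lack a deposited p-value, and black bars are medians over all points of a list. The genes of the basolateral list, which also holds the apical channel gene Kcnj1, all lie below 0. The WNK pathway genes centre near 0 at 3 weeks (medians 0.01 and 0.03), and the principal cell markers lie mostly above 0.

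Markers of other kidney cells moved between the same groups, and their part in the values of the 10 genes was not tested. Over all tested genes 8.52%, 10.4% and 27.8% fell in the 3 comparisons, and 8.81%, 8.29% and 29.8% rose. Of 12 thick ascending limb markers, 6 of 10 tested fell and 1 rose in the authors' deposited table for 3-week males and 5 of 9 fell and 1 rose in females, and of 12 proximal tubule markers 7 of 11 and 3 of 9 fell. Of 10 principal cell markers, 4 of 7 tested rose in 3-week males and 4 of 5 in 3-month males in the authors' deposited tables, and none fell in any comparison. Of 12 intercalated cell markers 5 of 9 fell in 3-week males and 4 of 9 in females, of 8 podocyte markers 3 and 2 of 8 fell, and of 9 endothelial markers 4 and 9 of 9 fell. Of 11 macrophage and lymphocyte markers, 7, 7 and 9 rose in the 3 deposited tables of the authors, and of 10 tubular injury markers 7 of 8, 6 of 7 and 8 of 8 tested rose, with list medians of 1.48, 1.24 and 4.04. Of 8 fibroblast markers 1 of 2, 4 of 7 and 5 of 5 tested rose. At 3 months the authors' deposited table had 3 of 3 tested proximal tubule markers lower, 1 lower and 1 higher of 2 for the thick ascending limb, 0 called of 2 for intercalated cells, 4 lower and 1 higher of 6 for podocytes, and 2 lower and 1 higher of 6 for endothelium. In females 1 fibroblast marker fell, and the 1 principal cell marker tested did not pass. The level of each list within a group was not analysed here, since the means cover both genotypes.

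The genes whose fold changes over the 3 comparisons were most like those of the leading members were found among 9110 genes tested in all 3 tables at a mean of at least 100 normalized counts. The measure was the Euclidean distance between the 3 deposited log2 fold changes, so it compares 3 values per gene. Slc12a3 itself carried the status Outlier in 3-week females and 3-month males, whereas genes with that status in any table were left out as candidates. Nearest to Slc12a3 came Cpne4 (distance 0.38), Sall3 (0.60), Apom (1.05), Mansc4 (1.19) and Retsat (1.21). Nearest to Pvalb came Slc34a3 (1.13), Klk1 (1.43), Gcgr (1.53), Vstm2a (1.63) and Cpne4 (2.50). Cpne4, which encodes a copine, a calcium-dependent membrane-binding protein, was on both lists, with -2.57, -2.05 and -2.99 in the 3 deposited tables of the authors. Slc34a3 encodes a phosphate cotransporter of the proximal tubule, with -3.00, -2.77 and -4.39. With fold changes taken over their SE, 1 of the 5 names was shared with each of these lists, so the names depend on the measure.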

How the data were processed

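Kidneys of C57BL/6 mice gave polyadenylated RNA, and the library kit was TruSeq Stranded mRNA, per the labels' protocols. The submitters' processing notes name the build mm10, STAR, HOMER and DESeq2, with versions and roles not given in the sources used here. What was analysed is 3 tables of comparisons made by the authors, whose columns are of the kind DESeq2 writes, per the file headers. Each holds the authors' mean of normalized counts (a signal), their log2 fold change with its standard error, their p-value with an adjusted p-value, and a status. A normal 2-sided test of fold change over standard error gave at least 99.98% of the deposited p-values again. The status Low went with low means. The largest standard errors were 0.44, 0.42 and 1.10, as arises where fold changes are moderated towards 0. No table has values per library, so the planned count model could not be fitted, and the authors' fold changes and p-values were used as the design provides for that case. The labels name separate littermates, and each p-value reflects the variation among whichever libraries entered its table. Depth is known only as the sum of mean counts over genes (47478811, 33861809 and 18805533).

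A gene was called at a deposited adjusted p under 0.05. After 27 symbols turned into dates had been left out, 23393 genes remained. Genotype effects were compared across tables by the difference of fold changes over the root of the summed squared standard errors, 2-sided normal, with Benjamini-Hochberg adjustment over all genes tested in both, which assumes independent tables. Some genes that the naming rule took are not reported here. Computations used Python 3.11.15, numpy 2.4.6, pandas 2.3.3, scipy 1.17.1 and matplotlib 3.10.9, and the test of differences was checked on simulated data. Lengths and coordinates come from GENCODE M21 (GRCm38, also called mm10), and promoter sequences those of RefSeq on GRCm38.p6. The alternatives were equal total counts, centring on all genes or on genes of like mean count (20 bins), p-values for all genes with a fold change, an adjusted p under 0.01, a log2 fold change of at least 0.5, and wider standard errors. Genes named besides the members and Esrrg are up to 4 of each list with the smallest p in a table, genes of a list called in opposite directions, and the 5 nearest in fold changes to Slc12a3 and Pvalb. The 10 members and the 15 gene lists (182 symbols, all found, 1 of them under an older symbol) were chosen with earlier results of these data known.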

Additional observations from a re-analysis of the deposited data

Results flagged for a closer look

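Stk39, the gene of the kinase SPAK, had a genotype effect that differed between the ages by a test of the difference itself. Its log2 fold change was higher by 0.81 ± 0.26 (SE) in 3-month than in 3-week males (0.85 against 0.04 in the authors' deposited tables; adjusted p = 0.00956, from the normal test of the difference with Benjamini-Hochberg adjustment). By the same test 27.7% of the genes that had a p-value at both ages differed.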

How the results depend on the processing

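Of the values reported for single members and their differences, the direction turned in 6 cases, none of them a value that had passed the test. Centring on genes of like mean count took Calb1 to 0.029 in 3-week males and 0.49 in 3-month males. Equal total counts took Calb1 to 0.28 in 3-month males, Stk39 to 0.087 in 3-week females, and the difference of Trpm6 between ages to 0.066. Undoing the moderation of fold changes, an alternative chosen after seeing the data, took the difference of Pvalb between ages to 2.02. With p-values for all genes with a fold change, 7 of 10 members were called at 3 months in place of 3 of 3 tested. The number of list genes called there was 114 in place of 67, with more of them tested. Over all 18244 genes 22.5% fell and 26.2% rose there under this rule, against 27.8% and 29.8% of the 12828 tested as deposited. The number of genes that differed between the sexes was 2 under this rule. That number was 132 with the moderation undone. The 3418 genes that differed between ages became 2190 at an adjusted p under 0.01 and 998 with standard errors multiplied by 1.5. Stk39 no longer passed with these wider standard errors. Equal total counts moved the share of calls that were higher in knockouts from 50.8% to 75.2% in 3-week males, from 44.2% to 74.0% in 3-week females and from 51.7% to 84.0% in 3-month males. Calls of members were kept under equal total counts and both centrings except that of Calb1 in 3-week females, which was lost under equal total counts (adjusted p = 0.157) and centring on genes of like mean count (adjusted p = 0.223), with its direction kept. The cause of these changes was not tested. No replicate could be left out because the tables hold no value per library, and no paired analysis was possible because of the same lack and because no replicate number is shared between groups. Depth per library is not known, so no limit from it is given.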
